A study of Mus musculus with 3 samples.

Results

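The 10 genes described here encode RNA-binding proteins that choose between alternative exons in skeletal muscle: Mbnl1, Mbnl2, Mbnl3, Celf1, Celf2, Rbfox2, Rbm24, Ptbp1, Ptbp2 and Qk. They were taken by name and not by a measured value, from the 35562 genes that remained when the transcript values of each library were summed per gene. All 10 had transcripts in the files, 139 in all, and all 10 were detected in every line.

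RNA-seq libraries were made from 3 mouse myoblast lines, labelled 66, 67 and 72, which formed a single group. Each line carried the Dmdmdx mutation, a premature stop codon in dystrophin, together with a Pax7-nGFP reporter that makes nuclei of Pax7-expressing cells fluoresce. CRISPR/Cas9 editing had been done earlier, in the pluripotent stem cells from which the lines descend. It made dystrophin RNA skip the mutated exon, so that the reading frame was restored. The lines were grown from satellite cells, the stem cells of muscle, that were sorted from chimeras. Those chimeras came from injecting one edited clone of induced pluripotent stem cells into mouse blastocysts whose own satellite cells carried an inducible toxin (Pax7-Cre/ERT2; Rosa26-lsl-DTA). The labels give neither the age of the animals nor which lines came from tamoxifen-injected animals, and do not say whether each line stands for 1 animal. Unedited and wild-type cells were not analysed here, so every value is a level or a difference between genes or lines and none is an effect of editing. The spread between lines is therefore the only error, and in bulk RNA fewer cells of a type cannot be told apart from less RNA per cell.

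Total estimated counts lay between 66972426 (line 67) and 73274315 (line 66). All 6 myoblast markers, Pax7, Myf5, Myod1, Itga7, Des and Cdh15, were above 10 TPM in every line, where TPM is a count divided by transcript length and scaled to 1000000 per library. None of 4 endothelial markers reached 1 TPM in every line, and a single gene did so in each of the lists of 4 immune, 4 fibro-adipogenic, 5 neuronal and 4 glial markers. The neuronal one was Tubb3, a tubulin that is not restricted to neurons, whereas Rbfox3, Elavl3, Snap25 and Syp stayed below 1 TPM. Estimated counts differed between lines by far more than sampling noise, with a chi-square per degree of freedom of 47.8 to 78.8, and no library was a copy of another.

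Splicing regulators of this kind bind short motifs in or beside an exon and raise or lower its inclusion according to where they bind. Muscleblind-like (MBNL) and CUGBP Elav-like (CELF) proteins act in opposite directions on many of the same muscle exons, with MBNL activity rising and CELF activity falling as muscle matures, and sequestration of MBNL proteins by repeat RNA underlies myotonic dystrophy. RBFOX2, RBM24 and quaking (Qk) favour muscle exons during differentiation. PTBP1 is a widely expressed repressor of neuronal and muscle exons, and PTBP2 is its paralog best known from developing neurons. PTBP1 causes skipping of a 34-base exon in its own transcript and in that of Ptbp2, which shifts the reading frame and marks the RNA for nonsense-mediated decay (NMD), the removal of RNAs with an early stop codon.

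The exons on which the paralogs were compared are printed 5′ to 3′ in the sense of the gene, from GENCODE release M21 transcripts on GRCm38, with capitals at the positions that are identical in the paralog. All 6 lay within coding sequence. The Ptbp pair shared 26 of 34 positions (76.5%), and lay at chr10:79862014-79862047 on the plus strand (Ptbp1) and chr3:119724612-119724645 on the minus strand (Ptbp2).
Ptbp1 34-base exon: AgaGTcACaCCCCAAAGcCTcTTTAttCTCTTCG
Ptbp2 34-base exon: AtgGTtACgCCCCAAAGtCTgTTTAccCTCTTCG
The 54-base exons of Mbnl1 (chr3:60614683-60614736, plus strand) and Mbnl2 (chr14:120395712-120395765, plus strand) shared 46 of 54 positions (85.2%). They encode part of the signal that keeps these proteins in the nucleus.
Mbnl1 54-base exon: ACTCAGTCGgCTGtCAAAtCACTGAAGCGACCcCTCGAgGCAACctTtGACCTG
Mbnl2 54-base exon: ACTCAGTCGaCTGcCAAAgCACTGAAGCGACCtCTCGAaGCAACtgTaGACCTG
The 36-base exons of Mbnl1 (chr3:60621423-60621458) and Mbnl2 (chr14:120403336-120403371), both on the plus strand, shared 31 of 36 positions (86.1%).
Mbnl1 36-base exon: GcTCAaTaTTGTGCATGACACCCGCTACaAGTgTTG
Mbnl2 36-base exon: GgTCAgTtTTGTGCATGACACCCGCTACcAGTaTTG
Reads could be told apart between these paralogs, since no member shared a 31-base word with another member, and between 99.1% (Mbnl3) and 100% (Rbfox2 and Rbm24) of the 31-base words of a member occurred in no other gene.

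By mean TPM Ptbp1 was the highest of the 10 regulators and Mbnl3 the lowest, although Qk exceeded Ptbp1 in line 67. Without division by length Qk stood above Ptbp1 in lines 67 and 72, at 599 and 553 CPM against 340 and 352 CPM, where CPM is counts scaled to 1000000 per library. On that scale Rbfox2 also exceeded Ptbp1 in those lines, at 380.2 and 455 CPM. Ptbp1 (chr10:79854427-79864771, plus strand) stood at 464 TPM in line 66, 323 TPM in line 67 and 336 TPM in line 72, a mean of 374 ± 78.1 TPM (SD, n = 3), above 98.5% of detected genes. Line 66 was the high one, and the other lines lay close together. Ptbp2 (chr3:119718742-119784466, minus strand) stood at 61.3, 101 and 91.8 TPM in lines 66, 67 and 72, with a mean of 84.7 ± 20.7 TPM. Here line 66 was the low one, so the lines stood in opposite order for the 2 paralogs.

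Within every line Ptbp1 exceeded Ptbp2, by 7.57 times in line 66, 3.20 times in line 67 and 3.66 times in line 72. The difference in log2(TPM + 1) was 2.14 ± 0.66 (SD, n = 3 lines) and had the same sign in 3 of 3 lines. The exact two-sided sign-flip permutation test over lines gave p = 0.25, which is the smallest value that 3 lines allow, and 0.25 after Benjamini-Hochberg adjustment over the 5 pairs tested. Ptbp3, the remaining paralog, took 11.3% ± 1.82 of the TPM of the 3 Ptbp genes, against 71.9% ± 7.21 for Ptbp1 and 16.8% ± 5.43 for Ptbp2. Without division by length the order of Ptbp2 and Ptbp3 turned in every line, with Ptbp3 at 182, 193 and 170.1 CPM and Ptbp2 at 73.2, 111 and 99.7 CPM in lines 66, 67 and 72. The Ptbp1 share was 80.1% in line 66, and 66.3% and 69.5% in lines 67 and 72.

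Among the muscleblind-like genes Mbnl2 was highest, Mbnl1 followed and Mbnl3 was far below both. Mbnl2 (chr14:120275669-120431697, plus strand) stood at 146, 182 and 149 TPM in lines 66, 67 and 72 (mean 159 ± 19.9). Mbnl1 (chr3:60472830-60629750, plus strand), the paralog best known from adult muscle, stood at 63.0, 77.5 and 81.1 TPM (mean 73.8 ± 9.57). Mbnl3 (chrX:51117269-51206532, minus strand), known as an inhibitor of muscle differentiation, stood at 2.47, 3.19 and 4.50 TPM (mean 3.39 ± 1.03) from 370, 384 and 465 estimated counts, and 58.2% of detected genes lay below it. The ranges of the 3 paralogs over lines did not overlap.

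On the log2(TPM + 1) scale Mbnl1 minus Mbnl2 was -1.09 ± 0.20, Mbnl1 minus Mbnl3 was 4.11 ± 0.18 and Mbnl2 minus Mbnl3 was 5.20 ± 0.38. Each difference kept its sign in 3 of 3 lines, and each had p = 0.25 by the exact sign-flip permutation test, also after adjustment. Of the TPM of the family, Mbnl2 took 67.2% ± 3.27, Mbnl1 31.3% ± 2.85 and Mbnl3 1.44% ± 0.42. The Mbnl1 to Mbnl2 ratio was 0.432, 0.427 and 0.545 in lines 66, 67 and 72, so Mbnl1 came nearest to Mbnl2 in line 72.

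Celf1 and Celf2 were of similar level. Celf1 (chr2:90940382-91019497, plus strand) stood at 76.8, 96.0 and 85.1 TPM in lines 66, 67 and 72 (mean 86.0 ± 9.62). Celf2 (chr2:6539694-7509563, minus strand) stood at 101, 105 and 133 TPM (mean 113 ± 17.3). Celf1 was the lower of the pair in 3 of 3 lines, by -0.38 ± 0.25 in log2(TPM + 1), with p = 0.25 by the exact sign-flip permutation test before and after adjustment. Without division by transcript length the mean difference turned, to 0.14 ± 0.20 in log2(CPM + 1), with an adjusted p of 0.50 by the same exact test. In line 72 Celf1 stayed the lower, at 289 against 295 CPM. Celf4 added 7.70% ± 1.46 of the TPM of the 6 Celf genes and Celf5 1.55% ± 0.63, while Celf3 and Celf6 together held under 1 TPM in every line.

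**Figure D1:**
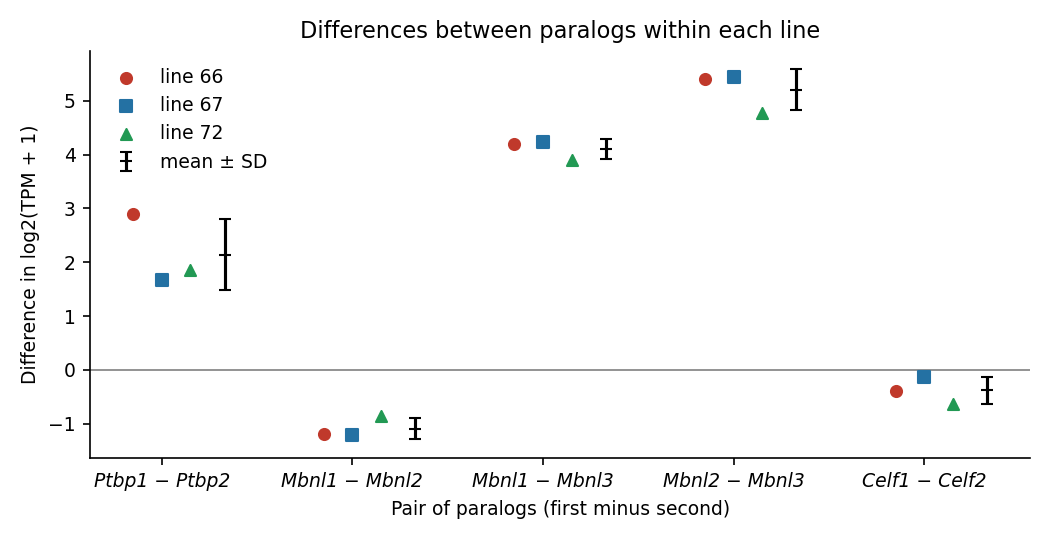
Difference between paralogs in log2(TPM + 1) within each line (vertical axis) for 5 pairs (horizontal axis). Points are lines 66, 67 and 72, and the bar is the mean with its SD; Ptbp1 minus Ptbp2 is largest in line 66 (2.90) and Celf1 minus Celf2 lies nearest to 0 (mean -0.38).

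The regulators that favour muscle exons were above 100 TPM in every line. Rbfox2 (chr15:77078990-77307004, minus strand), which binds GCATG motifs beside exons, stood at 212, 264 and 333 TPM in lines 66, 67 and 72 (mean 270 ± 60.8). Rbm24 (chr13:46418434-46431095, plus strand), needed for muscle-specific exons of sarcomere genes, stood at 123, 174 and 165 TPM (mean 154 ± 27.7). Qk (chr17:10202601-10319854, minus strand), a STAR-family RNA-binding protein, stood at 274, 354 and 323 TPM (mean 317 ± 40.2). In all of them line 66 was the lowest line.

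Within their families, Rbfox2 took 86.3% ± 5.77 of the Rbfox TPM and Rbm24 65.4% ± 4.03 of the sum with its paralog Rbm38. Rbfox1, known from neurons and adult muscle, stood at 46.6 and 50.01 TPM in lines 66 and 67 and 25.7 TPM in line 72. The share of Rbfox2 was correspondingly 82.0% in line 66, 84.1% in line 67 and 92.8% in line 72.

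By mean level the order was Ptbp1, Qk, Rbfox2, Mbnl2, Rbm24, Celf2, Celf1, Ptbp2, Mbnl1 and Mbnl3. The ranges over lines did not overlap between Rbfox2 and Mbnl2, between Celf2 and Celf1, or between Mbnl1 and Mbnl3. They did overlap between Ptbp1 and Qk, Qk and Rbfox2, Mbnl2 and Rbm24, Rbm24 and Celf2, Celf1 and Ptbp2, and Ptbp2 and Mbnl1, so those neighbours were not separated by the spread between lines. Rbm24 was above Celf2 in 3 of 3 lines by TPM, by 0.44 ± 0.25 in log2(TPM + 1), but Celf2 was the higher in lines 66 and 72 by CPM, at 237 and 295 against 182 and 271 CPM.

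**Figure D2:**
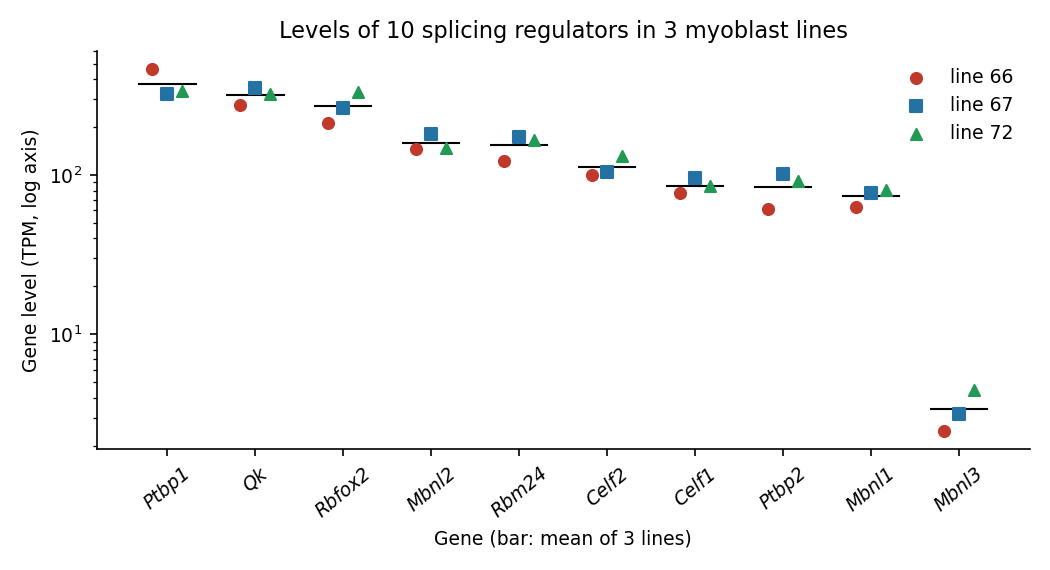
Level of each of the 10 regulators in TPM (log axis) in lines 66, 67 and 72, with a bar at the mean, ordered by mean. Ptbp1 is the highest gene (mean 374 TPM), Mbnl3 is the lowest (mean 3.39 TPM), and line 66 is the lowest point for every gene except Ptbp1.

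The level of a gene depended on which of its annotated transcripts were counted, and most for Qk, Ptbp1 and Rbfox2. Transcripts annotated as coding with a complete start and end held 82.2% of the TPM of Celf1, 81.8% of Celf2, 79.3% of Rbm24, 78.3% of Mbnl3, 65.7% of Mbnl1, 62.6% of Mbnl2 and 59.6% of Ptbp2. The share was 45.5% for Rbfox2, 42.5% for Ptbp1 and 21.3% for Qk. Short partial models, which lack an annotated start or end, carried 46.0% of the Ptbp1 TPM but 5.21% of its estimated counts, since TPM divides by length. They were mainly Ptbp1-209, at 123, 67.7 and 71.0 TPM in lines 66, 67 and 72, and Ptbp1-211, at 87.1, 80.0 and 76.4 TPM. In Rbfox2 a single processed transcript, Rbfox2-205, held 36.1% of TPM and 3.26% of counts.

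Over complete coding transcripts alone, Ptbp1 had the highest mean, 158 ± 28.6 TPM, although Rbfox2 exceeded it in line 72, and Mbnl3 the lowest, 2.56 ± 0.33 TPM. By mean Rbm24 moved from rank 5 to rank 2 with 123 ± 27.5 TPM, close to Rbfox2 with 122 ± 21.6 TPM, which was the higher of the pair in lines 66 and 72. Qk moved from rank 2 to rank 7 with 67.9 ± 12.6 TPM. The 5 differences between paralogs kept their signs, with 1.65 for Ptbp1 minus Ptbp2 and -1.02 for Mbnl1 minus Mbnl2 in log2(TPM + 1). The ranks by mean of Ptbp1, Rbfox2, Mbnl2, Ptbp2, Mbnl1 and Mbnl3 did not move.

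**Figure D3:**
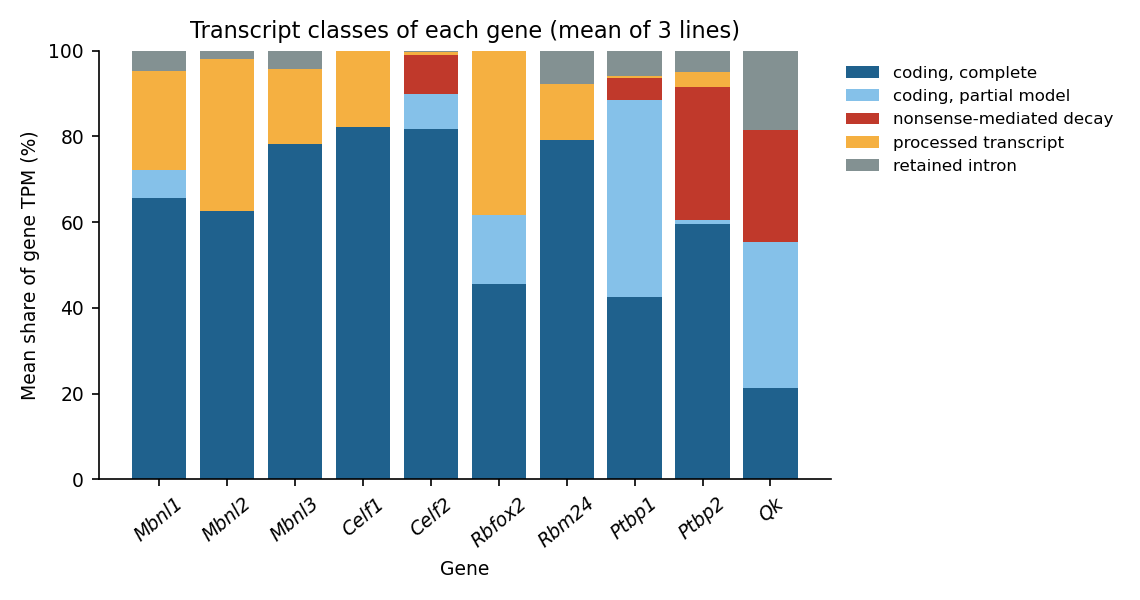
Mean share of the TPM of each gene over 3 lines (vertical axis, %) by annotated class of transcript, stacked to 100% for each of the 10 regulators. Complete coding transcripts hold 82.2% of Celf1 but 21.3% of Qk, and the NMD class is most visible in Ptbp2 (31.03%) and Qk (26.2%).

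Of the transcripts of Ptbp1, the main complete coding ones were Ptbp1-202, of 489 residues, at 94.5, 73.5 and 73.2 TPM in lines 66, 67 and 72, and Ptbp1-216, of 555 residues, at 94.7, 64.7 and 70.4 TPM. They were therefore of nearly equal level in each line. The 78-base exon at chr10:79860117-79860194 (plus strand) is held by Ptbp1-216 and spliced over in Ptbp1-202. It encodes part of the linker between RNA-binding domains, and its inclusion is known to change the strength of repression by PTBP1.
Ptbp1 78-base exon: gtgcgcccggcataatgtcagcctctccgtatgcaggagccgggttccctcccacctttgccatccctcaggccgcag
Its share was 43.4%, 42.5% and 43.1% in lines 66, 67 and 72 (mean 43.03% ± 0.46), where a share is the TPM of coding or NMD transcripts that hold an exon as a percent of those that hold it or splice over it. This was among the most even shares between lines, in a gene whose level was 1.44 times as high in the highest line as in the lowest. By estimated counts the share of the 78-base exon was 50.5%.

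The frame-shifting 34-base exon printed above was included in 87.8%, 92.0% and 88.1% of Ptbp1 in lines 66, 67 and 72 (mean 89.3% ± 2.34). The skipping transcript was Ptbp1-201, annotated as NMD, at 26.7, 12.2 and 19.4 TPM, so it was most abundant in the line with the most Ptbp1. In Ptbp2 the matching exon was included in 65.7%, 64.9% and 63.0% (mean 64.5% ± 1.38). The Ptbp1 share was the higher in 3 of 3 lines, by 24.8 ± 2.50 percentage points. The Ptbp2 share ranged over less than 3 percentage points between lines.

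The size of the Ptbp2 value rested on a short model. Ptbp2-206, an NMD transcript of 576 bases with an incomplete annotated model, carried most of the skipping form, at 17.2, 29.7 and 27.5 TPM, against 34.9, 54.6 and 49.99 TPM for the main coding transcript Ptbp2-201 (532 residues). By estimated counts, with no division by length, inclusion was 91.8% in Ptbp2 and 93.7% in Ptbp1. On that scale the exons differed much less. Transcripts marked for NMD are degraded, so that steady-state RNA understates how often they are made.

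The 54-base exon of the muscleblind-like genes was included in about equal measure in both paralogs. Its share was 48.4%, 54.7% and 53.0% in Mbnl1 (mean 52.0% ± 3.28) and 52.8%, 51.5% and 50.4% in Mbnl2 (mean 51.6% ± 1.21) in lines 66, 67 and 72. Mbnl1 minus Mbnl2 was 0.44 ± 4.25 percentage points, positive in 2 of 3 lines, which is less than the spread between lines. By estimated counts the shares were 51.2% in Mbnl1 and 63.8% in Mbnl2.

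The 36-base exon differed between them. It was included in 51.6%, 45.3% and 47.0% of Mbnl1 (mean 48.0% ± 3.28) and in 2.40%, 2.50% and 2.57% of Mbnl2 (mean 2.49% ± 0.09), where it was looked up after its values were seen. In Mbnl1 the TPM of complete coding transcripts lay in those that held either the 54-base or the 36-base exon, so the shares of these exons mirrored each other. The leading complete forms were Mbnl1-201 (381 residues, with the 36-base exon) at 18.1, 19.0 and 19.9 TPM, Mbnl1-218 (347 residues, with the 54-base exon) at 10.4, 14.8 and 14.7 TPM, and Mbnl1-214 (387 residues) at 9.80, 13.9 and 12.3 TPM. The noncoding Mbnl1-202 (12.4 ± 3.74 TPM) and Mbnl1-208 (4.50 ± 0.05 TPM) and the partial Mbnl1-210 (3.62 ± 1.11 TPM) made up most of the rest.

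In Mbnl2 the coding TPM was divided between Mbnl2-201 (373 residues, with the 54-base exon) at 45.3, 54.6 and 42.8 TPM and Mbnl2-204 (355 residues, without it) at 43.8, 55.5 and 44.8 TPM. A noncoding processed transcript, Mbnl2-205, was as abundant, at 48.9, 62.3 and 54.3 TPM. The difference between Mbnl2-201 and Mbnl2-204 had no common sign over lines. In Mbnl3, Mbnl3-202 of 246 residues led with 1.54, 1.72 and 2.08 TPM and Mbnl3-203 of 342 residues followed with 0.718, 0.795 and 0.823 TPM, while Mbnl3-206, with a retained intron, had a mean of 0.141 ± 0.04 TPM. The noncoding Mbnl3-207 stood at 0.108, 0.5001 and 1.45 TPM, and so carried much of the difference in Mbnl3 between lines 66 and 72. Other shares of the family lay at 88.8% ± 2.77 (Mbnl1, 1049 bases), 70.04% ± 2.39 (Mbnl1, 95 bases) and 30.6% ± 1.94 (Mbnl3, 247 bases). By estimated counts the first of these was 94.3% and the last 18.2%.

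Rbfox2 carries a pair of neighbouring exons near the end of its coding sequence, of which the 43-base exon is known as the muscle form and the 40-base exon as the brain form. They are printed below without a paralog, in lower case throughout, and lay at chr15:77091812-77091854 and chr15:77094451-77094490 on the minus strand.
Rbfox2 43-base exon: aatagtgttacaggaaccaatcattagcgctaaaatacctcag
Rbfox2 40-base exon: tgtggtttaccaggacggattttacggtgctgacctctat
The muscle exon was included in 32.1%, 35.5% and 36.6% of Rbfox2 in lines 66, 67 and 72 (mean 34.7% ± 2.33), and the brain exon in 59.2%, 57.9% and 54.3% (mean 57.1% ± 2.55). The brain exon was the more used of the pair in every line. The shares sum to 91.3%, 93.4% and 90.9%, so most complete transcripts counted held one or the other.

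These shares depended strongly on transcript length. The main transcript with the brain exon, Rbfox2-203 (381 residues), is 6573 bases long, whereas those with the muscle exon, Rbfox2-206 (378 residues) and Rbfox2-207 (346 residues), have short models, of 1041 bases in the case of Rbfox2-207. By estimated counts the brain exon stood at 88.3% and the muscle exon at 9.09%. Reads from a long 3′ end can be assigned only to transcripts whose model includes it, and how much of either value this sets was not tested. Rbfox2-207 also lacks the 93-base exon, which encodes part of the RNA-binding domain and was included in 85.3% ± 0.67 by TPM. By estimated counts inclusion of this exon was 96.7%. Of the partial models, Rbfox2-213 stood at 24.3, 31.8 and 35.5 TPM, and Rbfox2-211 was at 14.6 and 25.9 TPM in lines 67 and 72 but near 0 in line 66.

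Quaking proteins differ at their end, in forms known as QKI-5, which is nuclear, and QKI-6 and QKI-7, which lie partly or wholly in the cytoplasm. The transcript with an open reading frame of 341 residues (Qk-204, the length of QKI-5) stood at 13.0, 15.4 and 15.5 TPM in lines 66, 67 and 72. That of 319 residues annotated as coding (Qk-206, the length of QKI-6) stood at 31.04, 50.3 and 43.5 TPM, and that of 325 residues (Qk-201, the length of QKI-7) at 10.2, 13.5 and 11.4 TPM. Qk-204 and Qk-201 lay below the 5% share at which transcripts were named and were added after their values were seen.

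A further transcript with the 319-residue frame, Qk-202, is annotated as NMD and was more abundant than any of these, at 71.2, 89.2 and 89.0 TPM and 48.7% of the estimated counts of the gene. The 319-residue frame thus led in every line. The 117-base exon of Qk was spliced over only in the partial model Qk-205 of 650 bases, so that its share, 58.3% ± 1.85 by TPM, was 93.7% by estimated counts. The 30-base exon of Ptbp1 stood on the same footing, with 50.4% ± 2.14 by TPM and 4.90% by counts, as its main including model, Ptbp1-211, has 319 bases. Qk-203, with a retained intron, stood at 58.3 ± 5.62 TPM and Qk-205 at 108 ± 13.2 TPM.

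Rbm24 was the simplest of the genes, with a single coding transcript, Rbm24-201 of 236 residues, at 91.2, 136 and 141 TPM, and 97.9% of its counts. The processed transcript Rbm24-204 stood at 21.1, 24.3 and 8.51 TPM, and the retained-intron transcripts Rbm24-203 and Rbm24-205 had means of 7.04 ± 1.37 and 5.03 ± 3.801 TPM. Line 72 was thus highest for the coding form although line 67 was highest for the gene as a whole. In Celf1 the coding TPM was spread over several transcripts of 483 to 513 residues, led by Celf1-203 at 20.7, 29.0 and 28.7 TPM and Celf1-204 at 17.3, 19.5 and 13.4 TPM. The split among the minor Celf1 forms was uneven between lines, with Celf1-206 at 7.41, 13.2 and 2.25 TPM, Celf1-202 at 3.94, 1.94 and 7.97 TPM and Celf1-205 at 0.0388, 0.151 and 5.26 TPM. These forms share most of their sequence, and the split between them is the quantifier's estimate. Celf1-201 (mean 7.24 ± 1.40 TPM), Celf1-207 (5.31 ± 1.49 TPM) and the noncoding Celf1-209 (13.8 ± 1.06 TPM) varied less. Celf2 was led by Celf2-206 of 526 residues at 50.8, 53.0 and 61.2 TPM. Its other forms, Celf2-226 (11.6 ± 2.87 TPM), Celf2-213 (8.58 ± 3.81 TPM), Celf2-224 (6.55 ± 1.21 TPM) and Celf2-228 (10.1 ± 0.47 TPM), were each several times lower.

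The 144-base exon of Celf2 was included in 79.2% ± 1.13, the 41-base exon, held only by the NMD transcript Celf2-228, in 10.03% ± 0.80, and the 152-base exon of Celf1 in 15.4% ± 0.87. By estimated counts the 41-base exon stood at 4.75% and the 152-base exon of Celf1 at 10.6%.

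Exons in 5 other genes, known as targets of PTBP1, MBNL or CELF proteins, were read the same way. Pkm, pyruvate kinase, holds a pair of mutually exclusive 167-base exons, and PTBP1 represses the upstream one, which gives the adult muscle form M1. The upstream exon was used in 22.6%, 23.5% and 26.9% in lines 66, 67 and 72 (mean 24.3% ± 2.30), and the downstream one, which gives the M2 form of proliferating cells, in 75.7% ± 2.30. The M2 exon led in every line.

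The 57-base exon of Cacna1s, the voltage sensor of the muscle calcium channel, was included in 19.0%, 24.5% and 29.3% (mean 24.3% ± 5.16), the widest spread of any exon, in a gene at 4.51, 7.64 and 9.40 TPM. The 30-base exon of Tnnt2, cardiac troponin T, an embryonic exon that CELF proteins promote and MBNL proteins repress, was included in 83.9% ± 1.34 by TPM. By counts this exon stood at 90.3%, its main skipping transcript having 433 bases. The 42-base exon of Atp2a1, the calcium pump SERCA1, was included in 59.4% ± 3.19 by TPM and 89.3% by counts, its skipping transcript having 681 bases. The 36-base exon of Insr, the insulin receptor, was included in 15.0% ± 2.93 by TPM and 1.07% by counts, its including transcript being a model of 672 bases. No exon of 45 bases was annotated as alternative in the listed transcripts of Bin1, so its known muscle exon was not read here.

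**Figure D4:**
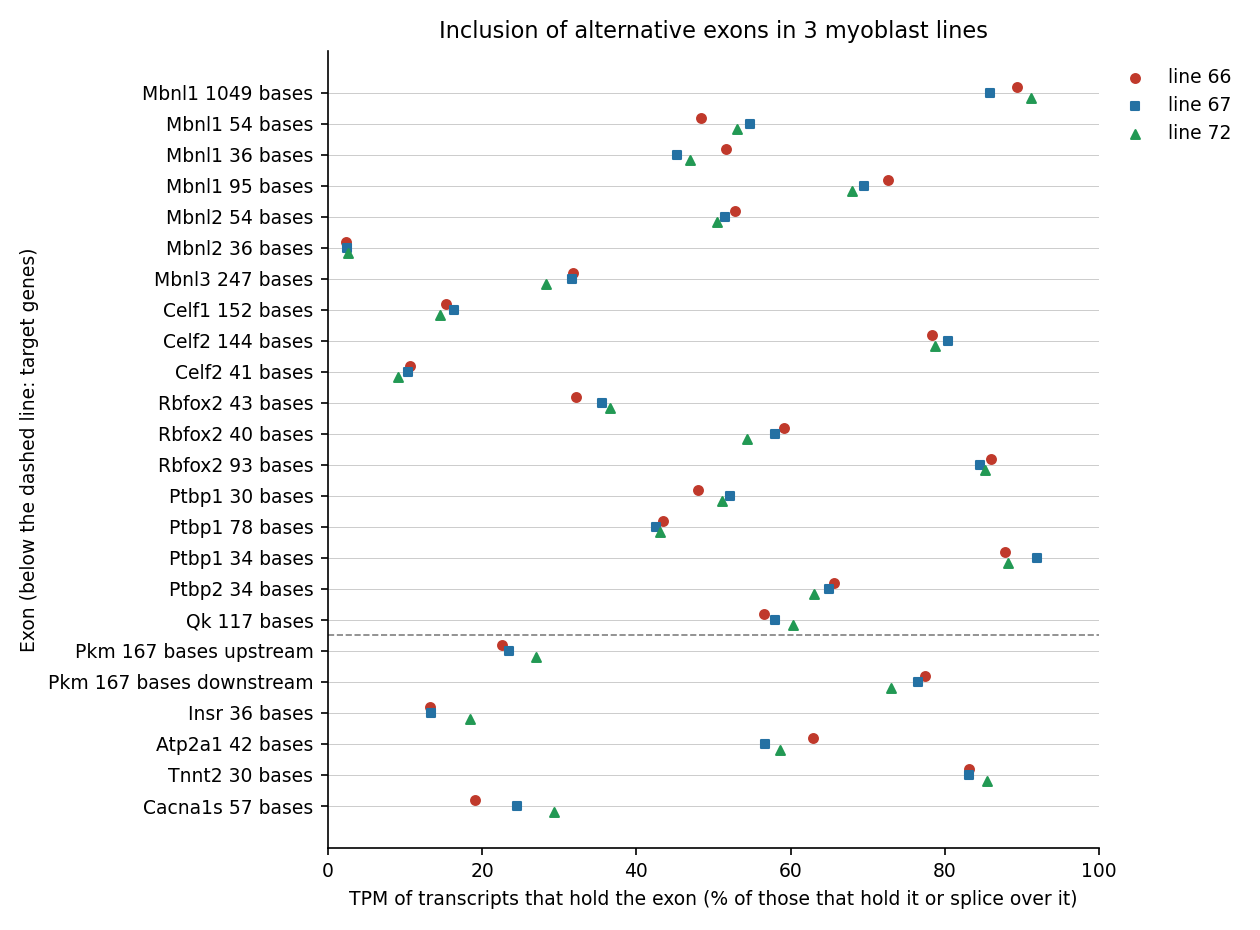
Inclusion of 18 exons of the regulators and 6 of target genes (rows, named by gene and length in bases) in lines 66, 67 and 72, as the percent of TPM of transcripts that hold the exon among those that hold it or splice over it. The 34-base exon lies near 89.3% in Ptbp1 and 64.5% in Ptbp2, the 54-base exon near 52% in both Mbnl1 and Mbnl2, and the 36-base exon at 48.0% in Mbnl1 against 2.49% in Mbnl2.

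Between lines the regulators differed modestly. The highest line was over 1.5 times the lowest in 2 of the 9 regulators that averaged 10 TPM or more, Ptbp2 (1.65 times) and Rbfox2 (1.57 times), where 9.79% of the 8428 genes at that level passed the same bound. With TMM or DESeq2 scaling of estimated counts Ptbp2 alone passed, and with coding transcripts Rbm24 passed as well. The count was 0 without line 66, 1 without line 67 and 1 without line 72. The share over all genes was not worked out for these other settings, so their counts have no background. Ptbp1 followed at 1.44 times and Rbm24 at 1.42 times, both below the bound. Mbnl3, below the level asked for, stood at 1.82 times.

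The direction was shared. Line 66 was the lowest line for 9 of the 10 regulators, all but Ptbp1. Among those averaging 10 TPM or more it was lowest for 8 of 9, while 47.7% of the 8428 genes at that level had their lowest value there. The same held for 8 of 12 SR protein genes and 14 of 21 hnRNP genes, groups of splicing factors described further on. This was noticed in the data and has no test. With transcripts annotated as coding, or with estimated counts scaled by TMM or DESeq2 size factors, the count was 8 of 10, as Mbnl2 was then no longer lowest in line 66. Those 8 include Mbnl3, below 10 TPM. Over the 8428 genes averaging 10 TPM or more the share was then 39.6% with TMM and 40.2% with DESeq2 size factors. These shares are limited to that level, whereas the 8 of 10 is not. No share over all genes was worked out for coding transcripts.

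As a log2 ratio, each line being set against the other lines' mean log2(TPM + 1), line 66 stood at -0.64 for Ptbp2, -0.48 for Rbfox2, -0.47 for Mbnl3, -0.47 for Rbm24, -0.33 for Mbnl1, -0.30 for Qk, -0.23 for Celf1, -0.22 for Celf2 and -0.17 for Mbnl2. Ptbp1 stood at 0.49 in the opposite direction. The median of 427 genes of chromosome 10, where Ptbp1 lies, was itself 0.28 in line 66, whereas the chromosomes of the other regulators had medians between -0.08 and 0.02 in that line. Ptbp1 stood at -0.29 in line 67 and -0.21 in line 72, with chromosome medians of -0.09 and -0.18. The part of the chromosome in the Ptbp1 difference was not tested.

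Markers of differentiated muscle moved in the same direction between lines. Myog, the transcription factor of differentiation, stood at 168, 222 and 310 TPM in lines 66, 67 and 72, Mymk, a fusion protein, at 67.6, 106 and 119 TPM, Myh3, embryonic myosin, at 204, 262 and 339 TPM, and Ckm, muscle creatine kinase, at 4.52, 6.88 and 9.30 TPM. All 4 were lowest in line 66 and highest in line 72, and their summed level was 444, 597 and 779 TPM. Mbnl1, Mbnl3, Celf2 and Rbfox2 were likewise lowest in line 66 and highest in line 72, while Mbnl2, Celf1, Rbm24, Ptbp2 and Qk were highest in line 67. This grouping is by TPM over all transcripts, and by CPM or over complete coding transcripts Mbnl1 was highest in line 67 and Rbm24 in line 72. The myoblast marker Pax7 was also lowest in line 66 and highest in line 72, at 136, 143 and 154 TPM. The other myoblast markers, Myf5, Myod1, Itga7, Des and Cdh15, did not have that order. The share of all genes with that order was not worked out. The part of differentiation in these differences was not tested.

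**Figure D5:**
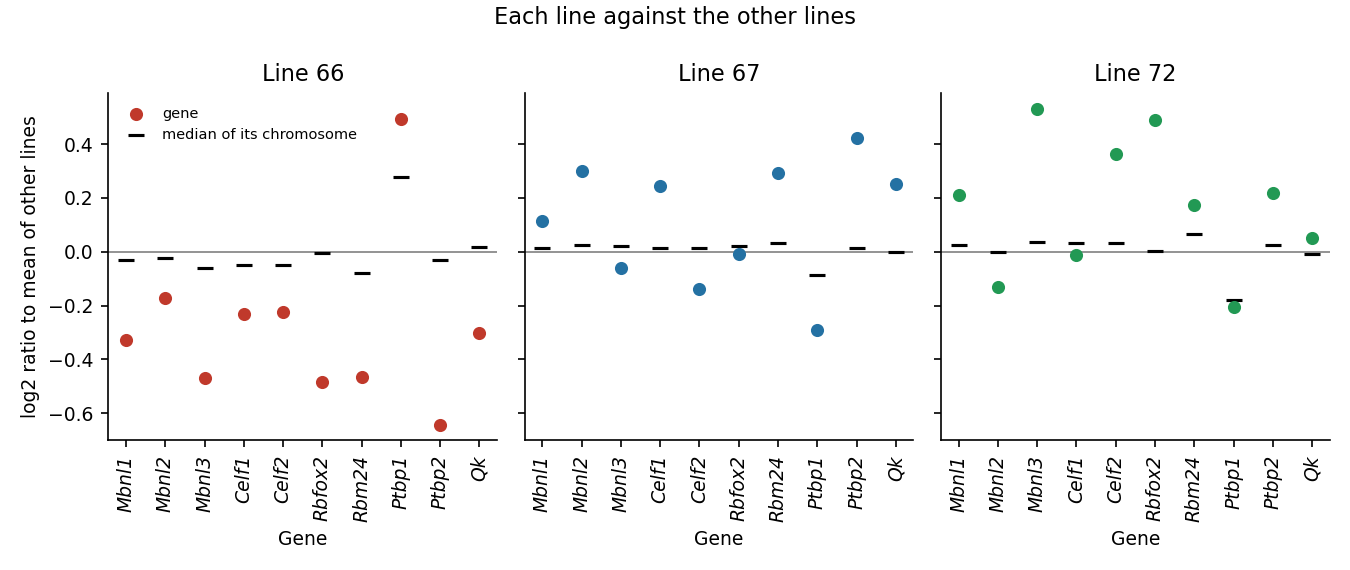
Log2 ratio between each line and the others' mean (vertical axis) for the 10 regulators, one panel per line. Points are genes and short black bars the median of the genes on the same chromosome that averaged 10 TPM or more; in line 66, 9 points lie below 0 and Ptbp1 lies at 0.49 above a chromosome median of 0.28.

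The other splicing regulators, from lists chosen for their biology, differed by group. Of 8 paralogs of the regulators, 4 were above 10 TPM in every line, with Rbm38 at 72.9, 74.5 and 94.8 TPM and Ptbp3 at 54.3, 63.2 and 55.9 TPM the highest. Celf3 and Rbfox3 were at or under the limit of 3 counts, and Celf4 (16.0, 13.2 and 21.7 TPM) and Rbfox1 were over 1.5 times apart between lines, the only ones among the 4 that averaged 10 TPM or more. Of 15 regulators known from neurons, epithelia, heart or all tissues, 6 were above 10 TPM in every line and 8 were below 1 TPM in every line. By mean TPM the highest were Msi2, a Musashi protein, at 178, 150 and 136 TPM and Tial1 at 105, 129 and 129 TPM. In line 67 Khdrbs3 exceeded Tial1.

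The lowest of that list were the neuronal Elavl4 and the epithelial Esrp1, each with at most 1 count in a line. Khdrbs3, at 85.6, 132 and 114 TPM, was the one gene over 1.5 times apart among those of the 15 that averaged 10 TPM or more, and like Ptbp2 it was lowest in line 66. General regulators were mostly high. Of 13 SR protein genes, which act mostly as activators, 12 were above 10 TPM in every line and none with that level was over 1.5 times apart (background 9.79%, so that counts of 0 in lists of this size are not read as a difference), with Srsf1 (483 ± 18.6 TPM) and Srsf5 (403 ± 11.0 TPM) highest, and Srsf4 (57.8 ± 4.93 TPM) and Srsf12 (0.419 ± 0.25 TPM) lowest.

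All 21 hnRNP genes, the wider group of nuclear RNA-binding proteins that includes Ptbp1, were above 10 TPM in every line and none was over 1.5 times apart. They ran from Hnrnph3 at 46.5 ± 4.95 TPM and Hnrnpll at 65.3 ± 1.22 TPM to Hnrnpk at 1698 ± 71.1 TPM and Hnrnpa2b1 at 1759 ± 151 TPM. The median of the list was 440 TPM, against 133 TPM for the 10 muscle regulators and 192 TPM for the SR protein genes. Ptbp1 lay within the range of this group, and Ptbp2 and Mbnl1 near its lower end.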

How the data were processed

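For each transcript the authors deposited an estimated count, which splits reads between the transcripts they fit and is not normalized, and TPM, that count divided by effective length and scaled to 1000000 per library. Libraries were stranded and poly-A selected. The submitters' processing notes list bcl2fastq 2.20, fastp 0.20, kallisto 0.46.1 and the build GRCm39. The strand setting and annotation release are not given in the sources used here. The split between transcripts is an estimate whose uncertainty is not in the files.

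Transcripts were matched by identifier to GENCODE M21 (GRCm38), which gave symbols, coordinates and classes. Of 121798 transcripts 1112 did not match (0.493% to 0.535% of counts), and all 139 transcripts of the regulators had the same length in both. A total of 3 counts was used as the limit of detection, which covers counting error only. A gene was called detected with TPM above 0 in any line (25510 genes).

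Pairs of genes were compared by an exact two-sided sign-flip permutation test over lines of log2(TPM + 1), with Benjamini-Hochberg adjustment over 5 pairs. Named were the 10 regulators, their transcripts of at least 5% of TPM in any line, and their exons with a mean share of 10% to 90% whose coding or NMD transcripts held at least 25% of the TPM of the gene and at least 1 TPM. The 34-base exon of Ptbp2, the 54-base and 36-base exons of Mbnl1, the target exons, and the 2 highest, 2 lowest and over 1.5-fold genes of each list were also named. The genes, lists and tests were chosen with earlier results of these data known. Estimated counts were rounded for TMM factors (edgeR 4.0.16) and DESeq2 1.42.0 size factors, used only as alternatives. Other alternatives were CPM (counts scaled to 1000000) in place of TPM, a pseudocount of 0.1, other transcript classes, other thresholds and each line left out. Complete coding transcripts and the count of genes lowest in line 66 were added after the data were seen. Scripts were tested on simulated data.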

Additional observations from a re-analysis of the deposited data

How the results depend on the processing

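The 5 differences between paralogs kept their direction with coding or complete coding transcripts. Another pseudocount, TMM scaling of TPM or leaving out a line cannot turn a difference whose sign is the same in all 3 lines, so these say nothing of stability. CPM in place of TPM reversed the mean of 1 of them, Celf1 minus Celf2, to 0.14, though not its sign in line 72, and kept the other 4. The sign of that mean thus depends on division by transcript length. With 3 lines the exact sign-flip test could not pass 0.05. The count of regulators over 1.5-fold apart between lines, 2, was 0 at 2-fold, 1 with TMM and 1 with DESeq2 size factors on estimated counts, and between 0 (without line 66) and 1 (without line 67 or without line 72) when a line was left out. Coding transcripts alone or a minimum of 1 TPM each gave 3. The counts under these other settings have no share over all genes beside them. Levels moved by more than the SD over lines for 9 of 10 regulators with complete coding transcripts, for 7 of 10 with coding transcripts and for 0 of 10 with TMM scaling. Exon shares moved by more than that SD for 20 of 24 exons with estimated counts, for 12 of 24 with complete coding transcripts and for 6 of 24 with coding transcripts. Many outcomes under the limits to coding or complete coding transcripts were fixed in advance. A share already drawn only from the transcripts kept could not move. A share went to 0% or 100% where its other side held only dropped models. The counts under those limits are therefore no measure of stability. Leaving out 1 of 3 lines cannot move a mean by more than the SD, so it is no check of levels or shares. No pairing of samples between groups was possible because all 3 lines belong to 1 group and there is no other group to pair them with. The sign-flip test paired 2 genes within each line. Depth limits Mbnl3 most, with 370 to 465 estimated counts per line.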
